A study of Mus musculus with 33 samples.

Results

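Ephs and ephrins, semaphorins with their plexin and neuropilin receptors, netrins, and Slits with their Robo receptors guide axons and set tissue boundaries. Their genes were taken by symbol: 64 of the 21844 mouse genes counted, namely 14 Eph receptors, 8 ephrins, 20 semaphorins, 9 plexins, 2 neuropilins, 4 netrins, 4 Robo receptors and 3 Slits. Expression was measured in 33 libraries of day 4 embryoid bodies, aggregates in which mouse embryonic stem cells differentiate, grown without serum. Cells had been dispersed at day 2 and then given activin A, a ligand of the TGF-β family, or SB-431542, which blocks its type I receptors. Samples called SFM are the labelled controls.

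The dose set was sequenced by DP-seq, a method that amplifies cDNA with designed heptamer primers. It has 1 library of SB-431542 (SB), 2 of SFM, 1 of activin A at 3 ng/mL (AA3), 2 of 15 ng/mL (AA15) and 1 of 100 ng/mL (AA100). The method set compares AA100 with AA3 in 3 kinds of library. Standard RNA-seq from 20 ng of mRNA has 2 AA3 libraries and 1 of AA100, DP-seq from 50 pg has 1 and 2, and SMART-seq, a full-length amplification method, from 50 pg has 2 and 2. A dilution series of AA3 mRNA by DP-seq has 2 libraries at each of 6 inputs from 10 ng to 1 pg, and 4 further AA3 libraries are 1 paired-end library and 3 with other primer sets. Pairs other than SFM are labelled technical replicates. Whether the SFM libraries came from separate cultures is not stated in the labels. The p-values of comparisons between groups therefore measure the spread between libraries, and groups with a single library borrow the spread of the others. The labelled tissue, embryo, names no cell type to check. In such mixed samples fewer cells of a type and less RNA per cell cannot be told apart.

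Eph receptors are receptor tyrosine kinases, and ephrins are their ligands on neighbouring cells; contact signals in both directions and sorts cells at boundaries. Semaphorins are secreted or membrane-bound ligands of plexins, and neuropilins are co-receptors for the secreted class. Netrins act through Dcc and Unc5 receptors, and Slits repel through Robo receptors. Several of these molecules also act outside the nervous system, in gastrulation, somite borders and blood vessels. Activin signals through Smad proteins, with FoxH1 as a DNA-binding partner, and raises mesendoderm genes in differentiating stem cells.

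Promoters of 4 members are shown because the dose patterns described next turn on these genes: Epha1 and Slit3 had their lowest level with the inhibitor and lay above SFM in all activin libraries, and Sema3a and Plxnc1 lay below SFM in all activin libraries. Each is the 250 bases before the gene's start in RefSeq (GRCm38.p6), written 5′ to 3′ on the gene's strand. Capitals mark a match to the Smad element GTCTG on either strand. They lie at chr6:42373269-42373518 on the minus strand (Epha1), chr11:35121206-35121455 on the plus strand (Slit3), chr5:13396534-13396783 on the plus strand (Sema3a) and chr10:94944846-94945095 on the minus strand (Plxnc1).
Epha1: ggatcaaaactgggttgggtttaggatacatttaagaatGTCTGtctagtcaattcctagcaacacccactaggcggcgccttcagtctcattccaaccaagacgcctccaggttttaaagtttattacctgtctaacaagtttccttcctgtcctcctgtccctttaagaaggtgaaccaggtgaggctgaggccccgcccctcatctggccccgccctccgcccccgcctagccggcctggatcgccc
Slit3: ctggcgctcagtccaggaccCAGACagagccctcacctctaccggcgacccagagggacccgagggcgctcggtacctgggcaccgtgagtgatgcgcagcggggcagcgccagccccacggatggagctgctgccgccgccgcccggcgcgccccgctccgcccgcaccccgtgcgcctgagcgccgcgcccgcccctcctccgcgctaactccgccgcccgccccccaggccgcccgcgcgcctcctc
Sema3a: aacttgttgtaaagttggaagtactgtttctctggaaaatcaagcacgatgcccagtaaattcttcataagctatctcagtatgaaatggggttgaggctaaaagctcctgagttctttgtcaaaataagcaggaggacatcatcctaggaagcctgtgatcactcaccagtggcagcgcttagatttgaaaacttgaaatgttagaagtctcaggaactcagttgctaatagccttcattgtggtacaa
Plxnc1: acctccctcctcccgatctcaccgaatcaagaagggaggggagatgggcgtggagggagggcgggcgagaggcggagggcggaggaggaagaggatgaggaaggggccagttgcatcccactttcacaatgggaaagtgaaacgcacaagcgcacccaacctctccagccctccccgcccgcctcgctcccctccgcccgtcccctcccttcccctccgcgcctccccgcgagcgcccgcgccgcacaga
Epha1 and Slit3 held 1 match each, and Sema3a and Plxnc1 held 0. Other members did not all follow this split. Epha2 and Sema3e, which like Epha1 and Slit3 were lowest in SB and above SFM in all activin libraries, held 0 matches. Ntn4, also above SFM in all activin libraries, held 2. Those below SFM in all activin libraries included Robo3 and Epha7 with 0 and Sema5b and Efnb2 with 1. GTCTG was in 42.2% of the 32851 windows of this length in the table and in 38 of the 72 windows of the 56 members matched. The FoxH1 element TGTGGATT, searched on both strands, was in 0.718% of all windows. It was in 1 member window, that of Sema3e, and in 0 of the 4 shown. A match describes letters and is not a measured binding site.

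Some libraries stand apart. The SD of the log2 ratio over genes was 1.81 between the SFM libraries and 0.422 between the AA15 libraries, and the second SFM library is labelled as holding spiked-in yeast transcripts. Dose-set results are therefore given with both SFM libraries and without the second, and the counts of calls also without the first. Without the second, only the AA15 pair gives the spread in comparisons between groups. The dose-set AA3 library differed from the 12 AA3 libraries of the dilution series. Its endoderm markers summed to 119.9 CPM (the count scaled to the library total, here without TMM factors), against 412 to 651 in the 12. Early neuron markers (85.1 against 376 to 1027) and mesoderm markers (6.05 against 8.91 to 206) also lay below the 12. Neuroectoderm markers lay above them, at 829 against 194 to 595. Pluripotency, primitive streak, endothelium and blood, and neural crest markers lay within the range. Library totals ran from 427556 to 30609013 counts, of which the members took 0.0304% to 0.803%. CPM from here on are scaled by TMM within each set unless stated, and adjusted p-values are from edgeR's quasi-likelihood test over all genes.

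In the dose set 46 of the 64 members had enough counts for a test. The trend over SFM, AA3, AA15 and AA100, as 4 equal steps, passed the adjusted p of 0.05 for 0 of the 46 in edgeR, beside 0.397% of all genes. The spread behind the p-values of the trend also holds departures of the steps from a straight line, with or without an SFM library. At an unadjusted p under 0.05 there were 19 members, beside 12.7% of genes, and DESeq2 called 9, beside 4.11%. Without the second SFM library 12 of 43 members passed, 7 higher and 5 lower; background 5.79%, of which 2.97% higher and 2.82% lower. Those higher were Efna3, Epha1, Epha2, Ntn4, Plxna2, Sema5a and Slit3, and those lower were Epha7, Plxnc1, Robo3, Sema3a and Sema5b. Without the first SFM library instead, 0 of 46 members passed (background 0.0168%). The slopes of 11 of these 12 genes kept their sign there, and the smallest adjusted p of a member was 0.096, for Plxnc1 (-1.52, SE 0.26). The sign turned for Sema5a, to -0.12 (SE 0.24, adjusted p = 0.73).

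Among the Eph receptors, Epha1, a receptor of ephrin-A ligands, was at 4.57 CPM in SB, 26.002 and 53.01 in SFM, 118 in AA3, 160.5 and 119 in AA15 and 199 in AA100. SB lay below both SFM libraries, and all activin libraries lay above them. The log2 change against SFM was -3.11 (SE 0.84, adjusted p = 0.96) in SB and 2.33 (SE 0.68, adjusted p = 0.94) in AA100. Without the second SFM library these were -2.52 (SE 0.33, adjusted p = 2.1e-09) and 2.93 (SE 0.31, adjusted p = 3e-15).

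Epha2, another receptor of ephrin-A ligands, was at 1.002 CPM in SB, 2.28 and 1.16 in SFM, 8.01 in AA3, 15.9 and 19.3 in AA15 and 19.3 in AA100. All activin libraries lay above SB and SFM, and AA15 and AA100 overlapped. The slope was 1.31 (SE 0.26, adjusted p = 0.11) log2 units per step with all libraries and 1.04 (SE 0.18, adjusted p = 0.0044) without the second SFM library. DESeq2 gave 1.30 (SE 0.25, adjusted p = 1.9e-05) on all libraries.

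Epha7, a receptor patterned in the early neural plate, was at 290.1 CPM in SB, 199.5 and 153 in SFM, 111 in AA3, 45.2 and 52.96 in AA15 and 55.6 in AA100. The activin libraries lay below SFM and SB lay above it. The slope was -0.66 (SE 0.16, adjusted p = 0.16) log2 units per step with all libraries and -0.69 (SE 0.12, adjusted p = 0.0039) without the second SFM library. Epha4, a receptor of both ephrin classes known from hindbrain and somite borders, was at 213 CPM in SB, 158 and 172 in SFM, 102 in AA3, 64.9 and 60.4 in AA15 and 115 in AA100, with its lowest libraries in AA15. Ephb3, a receptor of ephrin-B ligands, was at 8.27 CPM in SB, 31.4 and 32.8 in SFM, 31.1 in AA3, 21.8 and 28.9 in AA15 and 31.7 in AA100, so SB was the lowest library. Its change in SB was -1.96 (SE 0.63, adjusted p = 0.96), and -1.94 (SE 0.33, adjusted p = 5.8e-06) without the second SFM library. Epha5 and Ephb1 stayed at or under 2.41 and 1.16 CPM in the set.

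Of the ephrins, Efnb2, a transmembrane ligand that marks arteries and somite borders, was at 4254 CPM in SB, 2174 and 8371 in SFM, 1734 in AA3, 1569 and 1588 in AA15 and 1598 in AA100. The activin libraries lay below SFM, and SB lay between the SFM libraries. Its change in SB was -0.31 (SE 1.04, adjusted p = 0.97) with both SFM libraries, 0.96 (SE 0.28, adjusted p = 0.026) without the second and -0.98 (SE 0.25, adjusted p = 0.00023) without the first, so the direction turned with the SFM library used. Efna3, a lipid-anchored ligand, was at 1.75 CPM in SB, 1.82 and 0.964 in SFM, 2.503 in AA3, 3.88 and 2.696 in AA15 and 5.82 in AA100. The slope was 0.65 (SE 0.17, adjusted p = 0.2) log2 units per step with all libraries and 0.54 (SE 0.15, adjusted p = 0.047) without the second SFM library. Efna4, of the same class, was at 41.6 CPM in SB, 34.9 and 18.8 in SFM, 24.7 in AA3, 50.7 and 39.5 in AA15 and 52.1 in AA100, and its SB library lay within the activin range.

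**Figure D1:**
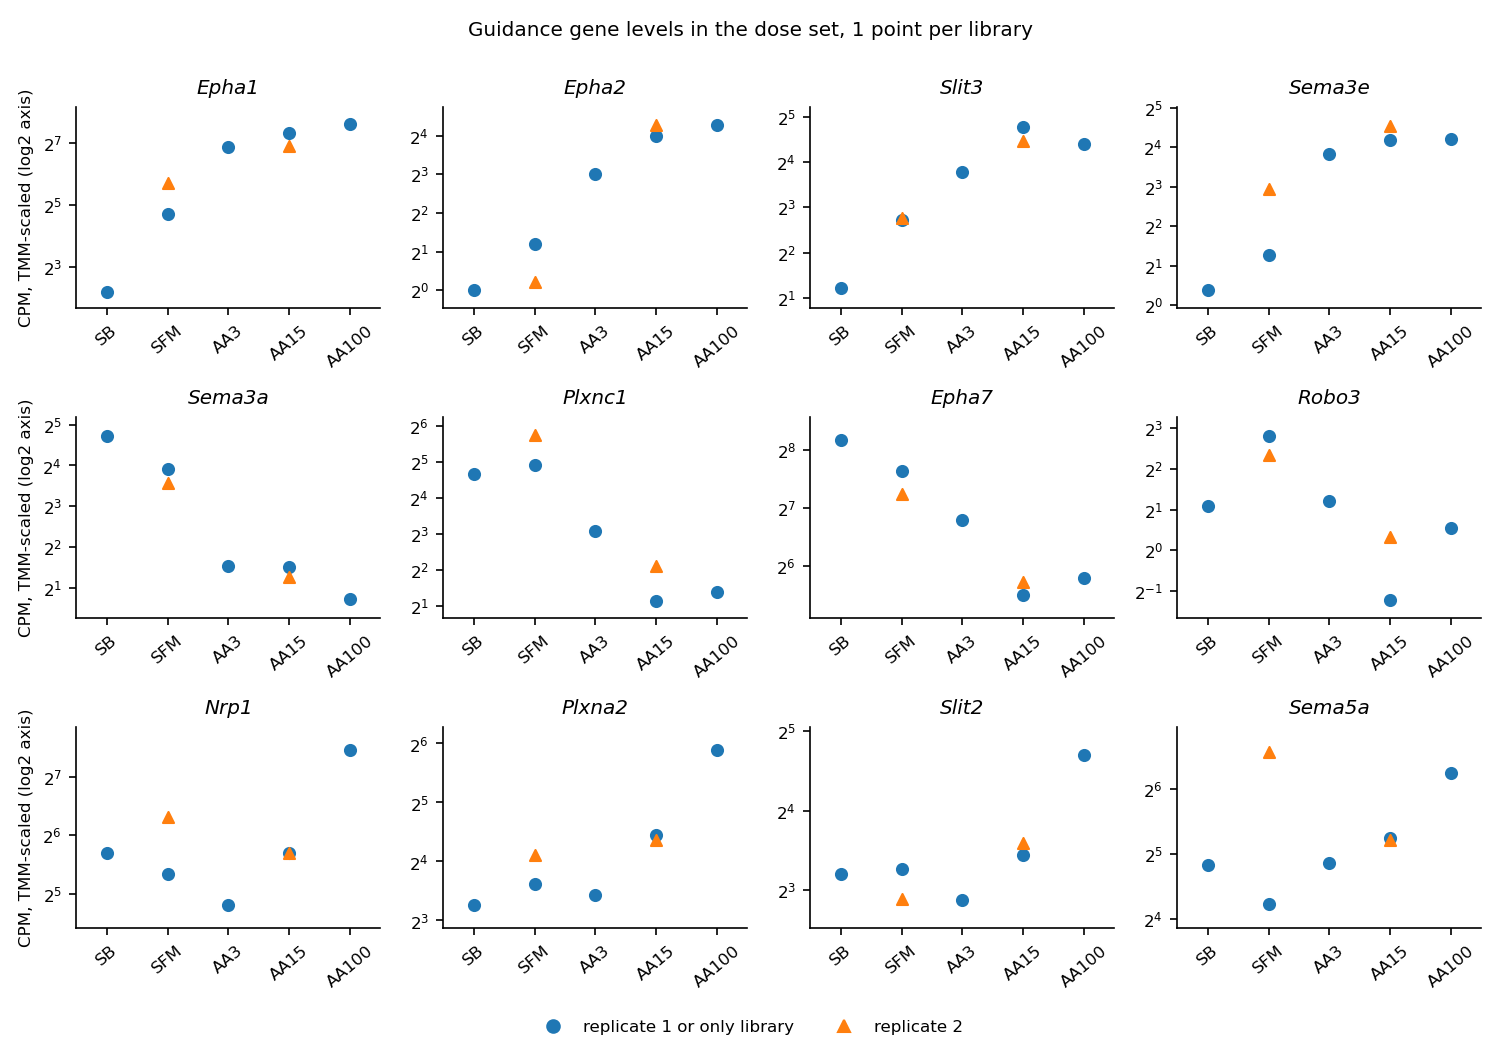
Levels of 12 guidance genes in the 7 dose-set libraries, as TMM-scaled CPM on a log2 axis with 1 point per library. The activin libraries lie above SFM in the top row and below it in the middle row, and in the bottom row AA100 lies above AA3 and AA15.

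Of the semaphorins, Sema3a, a secreted repellent that signals through Nrp1 and class A plexins, was at 26.4 CPM in SB, 15.17 and 11.95 in SFM, 2.88 in AA3, 2.83 and 2.42 in AA15 and 1.64 in AA100. The 4 activin libraries lay below the other 3 without overlap. The slope was -1.04 (SE 0.18, adjusted p = 0.081) log2 units per step with all libraries and -1.07 (SE 0.16, adjusted p = 0.0017) without the second SFM library. Sema5b, a transmembrane semaphorin, was at 6.51 CPM in SB, 7.496 and 7.903 in SFM, 3.38 in AA3, 2.401 and 2.97 in AA15 and 2.28 in AA100, below SFM in all activin libraries. The slope was -0.63 (SE 0.15, adjusted p = 0.16) log2 units per step with all libraries and -0.58 (SE 0.14, adjusted p = 0.023) without the second SFM library.

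Sema3e, a ligand that acts directly on Plxnd1, was at 1.32 CPM in SB, 2.401 and 7.71 in SFM, 14.3 in AA3, 18.3 and 23.4 in AA15 and 18.6 in AA100. The activin libraries lay above SFM, and AA100 lay within the AA15 pair. Its change in AA100 was 1.89 (SE 0.82, adjusted p = 0.94) with both SFM libraries. Without the second it was 2.55 (SE 0.38, adjusted p = 1.2e-07) in AA3 and 2.94 (SE 0.38, adjusted p = 8.8e-11) in AA100. Plxnd1 itself was at 1.04 to 2.89 CPM. Sema4d, a ligand of Plxnb1, was at 31.01 CPM in SB, 25.5 and 187 in SFM, 31.2 in AA3, 35.8 and 26.8 in AA15 and 19.7 in AA100, and only the second SFM library stood out. Sema7a, the ligand of Plxnc1, stayed at or under 0.885 CPM.

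Plxnc1, the receptor of Sema7a, was at 25.3 CPM in SB, 30.3 and 53.97 in SFM, 8.39 in AA3, 2.22 and 4.36 in AA15 and 2.59 in AA100. The activin libraries lay below SB and SFM. The slope was -1.46 (SE 0.23, adjusted p = 0.066) log2 units per step with all libraries and -1.28 (SE 0.16, adjusted p = 0.00041) without the second SFM library. It was the only member called in the trend when no filter on low counts was used, at -1.46 (SE 0.23, adjusted p = 0.038), beside 0.44% of genes. Plxna4, a class A plexin, was at 6.76 CPM in SB, 3.46 and 10.3 in SFM, 3.004 in AA3, 3.201 and 2.56 in AA15 and 8.47 in AA100, with AA100 above the other activin libraries.

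Slit3, a secreted Robo ligand, was at 2.32 CPM in SB, 6.62 and 6.84 in SFM, 13.8 in AA3, 27.3 and 21.99 in AA15 and 21.1 in AA100. SB lay below SFM and every activin library above it. The slope was 0.69 (SE 0.18, adjusted p = 0.2) log2 units per step with all libraries and 0.63 (SE 0.16, adjusted p = 0.035) without the second SFM library. Slit1 was at 0.125 CPM in SB, 0.293 and 0.386 in SFM, 0.125 in AA3, 0.492 and 0.553 in AA15 and 1.58 in AA100. Robo3, a receptor that controls midline crossing, was at 2.13 CPM in SB, 7.03 and 5.11 in SFM, 2.32 in AA3, 0.431 and 1.24 in AA15 and 1.45 in AA100, so SFM held its highest libraries. Its change without the second SFM library was -1.73 (SE 0.47, adjusted p = 0.016) in SB and -2.27 (SE 0.50, adjusted p = 0.00028) in AA100, and with both it was -1.51 (SE 0.87, adjusted p = 0.96) and -2.06 (SE 0.90, adjusted p = 0.94). Robo1, the main Slit receptor of many tissues, was at 52.2 to 169.6 CPM, while Robo2 and Robo4 stayed at or under 1.54 and 0.964 CPM.

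Ntn4, a netrin of basement membranes, was at 8.77 CPM in SB, 3.69 and 0.289 in SFM, 9.699 in AA3, 11.6 and 12.1 in AA15 and 13.02 in AA100, with the SFM libraries lowest. The slope was 0.94 (SE 0.40, adjusted p = 0.4) log2 units per step with all libraries and 0.56 (SE 0.15, adjusted p = 0.041) without the second SFM library. Ntn1, the netrin of the floor plate, was at 15.03 CPM in SB, 21.3 and 10.3 in SFM, 8.39 in AA3, 8.62 and 9.96 in AA15 and 17.2 in AA100, with its lowest libraries in AA3 and AA15. Ntn3 was at 15.6 to 23.9 CPM.

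Against SFM, 0 of 46 members and 0 of 12180 genes passed in edgeR in SB, AA3, AA15 or AA100, a background of 0%. At an unadjusted p under 0.05 there were 2, 3, 11 and 11 members, beside 1.47%, 1.62%, 5.76% and 4.44% of genes. DESeq2 called 2 in AA15 and 2 in AA100, Epha2 and Plxnc1 each time, of 40 members with an adjusted p in each and beside 1.46% and 1.01% of genes. Without the second SFM library 6 of 44 members passed in SB (2 higher and 4 lower; background 4.12%, of which 1.42% higher and 2.7% lower). In AA3 11 passed (6 higher and 5 lower; background 5.27%, of which 2.79% higher and 2.48% lower), in AA15 16 (9 higher and 7 lower; background 13%, of which 6.96% higher and 6.05% lower) and in AA100 17 (12 higher and 5 lower; background 12.9%, of which 7.18% higher and 5.74% lower). These comparisons share the SFM library. The members in SB were Efnb2 and Ntn4 (higher) and Epha1, Ephb3, Robo3 and Slit3 (lower).

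The counts were larger without the first SFM library, for the members and for all genes. In SB 26 of 46 members passed (10 higher and 16 lower; background 58.4%, of which 30.9% higher and 27.5% lower). In AA3 26 passed (11 and 15; background 57.3%, 31.3% and 25.9%), in AA15 35 (13 and 22; background 64.7%, 34.9% and 29.8%) and in AA100 28 (16 and 12; background 59.2%, 32.5% and 26.7%). Calls in the same direction whichever SFM library was left out numbered 5 (SB), 9 (AA3), 12 (AA15) and 14 (AA100) of 44 members, beside 2.32%, 2.99%, 8.2% and 8.05% of genes. These 2 fits share all their other libraries.

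In all 4 comparisons these calls held Epha1 and Slit3, lower in SB and higher with activin, Ntn4, higher, and Robo3, lower. Epha2 and Sema3e (higher) and Plxnc1 and Sema3a (lower) were among them in all activin comparisons. Efnb2 in SB and Sema5a in AA15 were called in opposite directions by the 2 fits, Sema5a at 0.99 (SE 0.27, adjusted p = 0.0046) without the second SFM library and -1.35 (SE 0.25, adjusted p = 2.2e-07) without the first. Without the first, the change of Epha1 was -3.54 (SE 0.34, adjusted p = 1.2e-23) in SB and 1.90 (SE 0.30, adjusted p = 9.3e-10) in AA100, and that of Ephb3 in SB was -1.99 (SE 0.33, adjusted p = 1.2e-08). Sema3e was then at 0.88 (SE 0.35, adjusted p = 0.023) in AA3 and 1.26 (SE 0.35, adjusted p = 0.00074) in AA100. Robo3 was at -1.26 (SE 0.52, adjusted p = 0.028) in SB and -1.81 (SE 0.55, adjusted p = 0.0021) in AA100. Ntn4, whose second SFM level was its lowest, changed by 5.45 (SE 0.59, adjusted p = 8.8e-19) in AA100 without the first SFM library and by 1.81 (SE 0.37, adjusted p = 6.8e-05) without the second.

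Cell type markers differed between the same samples. The 7 primitive streak markers summed to 2.76 CPM in SB, 88.02 and 35.1 in SFM, 283 in AA3, 499.8 and 649 in AA15 and 1166 in AA100, with Eomes at 0 in SB. The 9 neuroectoderm markers summed to 1560 CPM in SB, 1090 and 683 in SFM and 754 to 892 with activin. The 6 early neuron markers summed to 213 CPM in SB, 168 and 537 in SFM and 63.1 to 83.6 with activin, with Dcx at 0 throughout. Their part in the members' values was not tested.

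Some members were higher at the top dose than at the lower ones. Nrp1, the neuropilin that binds class 3 semaphorins and VEGF, was at 51.7 CPM in SB, 40.3 and 79.6 in SFM, 28.03 in AA3, 52.01 and 51.8 in AA15 and 175 in AA100. Plxna2, a class A plexin that pairs with neuropilins, was at 9.58 CPM in SB, 12.2 and 17.3 in SFM, 10.8 in AA3, 21.9 and 20.7 in AA15 and 59.1 in AA100. AA100 was the highest library for both. Slit2, a Robo ligand, was at 9.21 CPM in SB, 9.604 and 7.42 in SFM, 7.32 in AA3, 10.9 and 12.03 in AA15 and 25.98 in AA100, again highest in AA100. Sema5a, a transmembrane semaphorin, was at 28.6 CPM in SB, 18.9 and 94.7 in SFM, 29.2 in AA3, 37.8 and 37.1 in AA15 and 75.9 in AA100, and there the second SFM library was higher still.

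AA100 against AA3 within the dose set was added after the data were seen. With all libraries it passed for 0 of 46 members and 0 of 12180 genes in edgeR (background 0%). At an unadjusted p under 0.05 there were 4 members, beside 1.05% of genes. Without the second SFM library 12 of 44 members passed (10 higher and 2 lower; background 4.64%, of which 2.81% higher and 1.83% lower), and without the first the same 12 genes (background 5.01%). Both libraries compared are single and no SFM library is among them, so the fits compare the same libraries. The AA15 pair gives the spread in each, and the shared list is not a repeat of the result. The log2 change was 2.65 (SE 0.30, adjusted p = 9.1e-13) for Nrp1, 2.47 (SE 0.33, adjusted p = 8e-10) for Plxna2, 1.84 (SE 0.34, adjusted p = 2.6e-05) for Slit2 and 1.39 (SE 0.30, adjusted p = 0.00042) for Sema5a. With all libraries these were 2.64 (SE 0.82, adjusted p = 1), 2.46 (SE 0.71, adjusted p = 1), 1.83 (SE 0.67, adjusted p = 1) and 1.38 (SE 1.21, adjusted p = 1). Efna4, Epha2, Ntn1, Plxna4, Sema3f and Slit1 were the others called higher, and Epha7 and Plxnc1 were called lower.

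In the method set the direction of these 4 genes was the opposite in standard RNA-seq and DP-seq. Efna4, Epha7 and Slit1, also called in the dose set, had the opposite sign in all 3 methods. Without the second SFM library Efna4 changed by 1.09 in the dose set, against -0.422, -0.896 and -0.661 in standard RNA-seq, DP-seq and SMART-seq. In that order Epha7 was at -0.99 and then 0.19, 0.43 and 0.019. Slit1 was at 3.59 and then -0.009, -0.12 and -0.17, the method values smaller than their SE. Epha2 kept its sign, and Ntn1, Plxna4, Plxnc1 and Sema3f differed in sign between methods. Nrp1 was at 60.2 and 61.3 CPM in AA3 and 19.4 in AA100 by standard RNA-seq, 206 CPM in AA3 and 101 and 78.9 in AA100 by DP-seq and 23.1 and 22.3 CPM in AA3 and 8.13 and 6.405 in AA100 by SMART-seq. AA3 was above AA100 in each method without overlap. The log2 changes were -1.65 (SE 0.10, adjusted p = 2.7e-64), -1.20 (SE 0.27, adjusted p = 0.012) and -1.64 (SE 0.35, adjusted p = 0.1) in that order.

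Plxna2 was at 167 and 159 CPM in AA3 and 69.98 in AA100 by standard RNA-seq, 73.5 CPM in AA3 and 27.4 and 40.6 in AA100 by DP-seq and 10.99 and 18.1 CPM in AA3 and 6.66 and 5.12 in AA100 by SMART-seq. AA3 was again above AA100 in each, with log2 changes of -1.22 (SE 0.05, adjusted p = 1.2e-108), -1.11 (SE 0.40, adjusted p = 0.14) and -1.31 (SE 0.47, adjusted p = 0.24). Slit2 was at 109.7 and 109 CPM in AA3 and 54.1 in AA100 by standard RNA-seq, 47.4 CPM in AA3 and 8.02 and 17.2 in AA100 by DP-seq and 7.27 and 7.92 CPM in AA3 and 4.93 and 4.56 in AA100 by SMART-seq. Its changes were -1.02 (SE 0.06, adjusted p = 1.3e-55), -1.91 (SE 0.52, adjusted p = 0.038) and -0.68 (SE 0.51, adjusted p = 0.6). Sema5a was at 63.4 and 64.5 CPM in AA3 and 39.7 in AA100 by standard RNA-seq, 197 CPM in AA3 and 90.3 and 95.2 in AA100 by DP-seq and 6.22 and 2.28 CPM in AA3 and 7.49 and 2.297 in AA100 by SMART-seq. The doses overlapped in SMART-seq alone. Its changes were -0.69 (SE 0.08, adjusted p = 1e-17), -1.09 (SE 0.27, adjusted p = 0.022) and 0.20 (SE 0.90, adjusted p = 0.95).

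**Figure D2:**
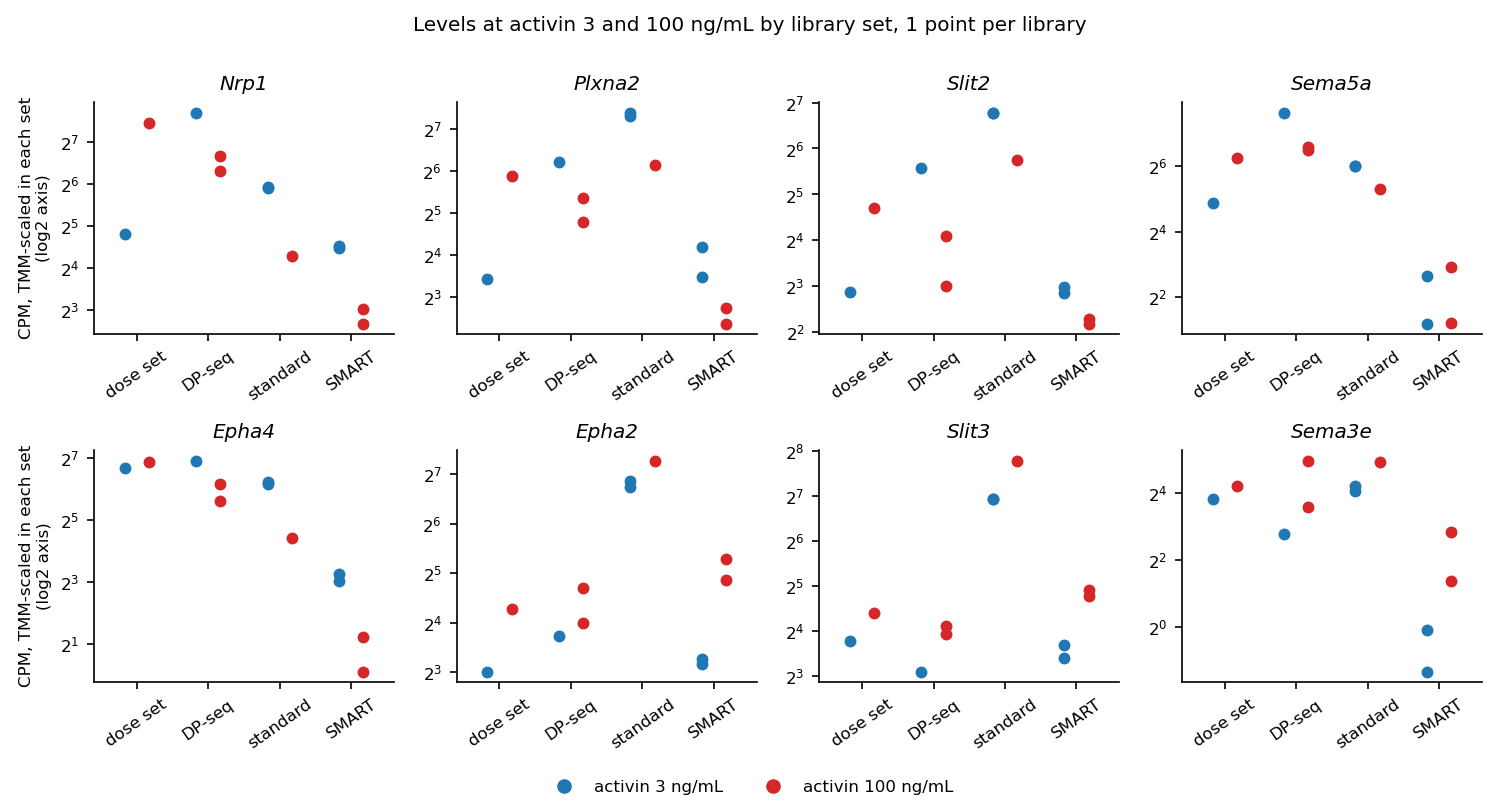
CPM of 8 guidance genes at activin 3 and 100 ng/mL in the dose set and in 3 library methods, TMM-scaled within each set, on log2 axes with 1 point per library. For Nrp1, Plxna2 and Slit2 AA100 is above AA3 in the dose set and below it in the 3 methods, while for Epha2, Slit3 and Sema3e it is above AA3 in all 4 sets.

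The difference between the dose set and the DP-seq libraries of the method set in this change was tested in a fit added after the data were seen. It was -3.88 (SE 0.38, adjusted p = 0.11) for Nrp1, -3.60 (SE 0.52, adjusted p = 0.12) for Plxna2, -3.77 (SE 0.76, adjusted p = 0.19) for Slit2 and -2.50 (SE 0.34, adjusted p = 0.12) for Sema5a on the log2 scale. In edgeR 0 of 45 members and 0 of 12878 genes passed (background 0%), with 12 members at an unadjusted p under 0.05, beside 11.9% of genes. Single libraries moved the first count: 3 and 5 members passed without AA15 replicate 1 and 2 (background 0.561% and 0.978%), and 17 and 21 without DP-seq AA100 replicate 1 and 2 (background 22% and 22.4%).

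The dilution series gives further AA3 libraries by DP-seq, in unscaled CPM. Nrp1 was at 28.5 CPM in the dose-set AA3 library and 51.5 to 289.6 (median 199) in the 12, Plxna2 at 10.9 CPM in the dose-set AA3 library and 42.1 to 194 (median 71.8) in the 12 and Sema5a at 29.7 CPM in the dose-set AA3 library and 91.6 to 1377 (median 142) in the 12. The dose-set AA3 library lay below all 12 for these genes. Slit2 was at 7.45 CPM in the dose-set AA3 library and 2.23 to 66.8 (median 19.04) in the 12. Only the 1 pg libraries, at 7.02 and 2.23 CPM from totals of 427556 and 448933 counts, lay below it for Slit2. Epha4 was at 103 CPM in the dose-set AA3 library and 13.4 to 122 (median 94.4) in the 12, within the range. The labels do not give the mRNA input of the dose set.

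Marker sums differed between the sets too. The 8 mesoderm markers summed to 5.94 CPM in AA3 and 31.4 in AA100 in the dose set, with Msgn1 at 0. In the method set they summed to 83.1 and 77.6 CPM in AA3 and 15.09 in AA100 by standard RNA-seq, to 118 and then 16.4 and 19.4 by DP-seq, and to 21.3 and 26.1 and then 3.05 and 7.62 by SMART-seq. The 8 endothelium and blood markers summed to 17.5 CPM in AA3 and 103 in AA100 in the dose set, with Hbb-y and Runx1 at 0. By standard RNA-seq they summed to 26.6 and 26.9 CPM and then 16.4, by DP-seq to 22.3 and then 26.1 and 12.4, and by SMART-seq to 10.99 and 13.2 and then 4.36 and 9.92. Endoderm markers were higher in AA100 in all 4 sets. Their part in the members' values was not tested.

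Levels of members with 1 RefSeq transcript, as all those named here, can be compared per length in standard RNA-seq. Members with several transcripts are described in the next paragraph. In CPM per kilobase of transcript in the 2 AA3 libraries, Epha1 was highest at 52.7 and 55.5. Plxna1 at 31.9 and 33.4 and Plxnb1 at 30.5 and 30.6 followed, and then Epha2 at 27.3 and 29.9, Efna4 at 28.8 and 27.95 and Sema4c at 27.3 and 27.2, whose ranges overlapped in part. The highest member of each other family was Ntn1 at 25.7 and 26.1, Slit3 at 23.3 and 23.5, Nrp1 at 16.7 and 17.03 and Robo1 at 16.4 and 16.9; the last pair overlapped.

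Low values need care. The 12 members with several RefSeq transcripts had a median of 10.5 counts over the 2 standard AA3 libraries together, and 9 had under 20, while the 52 with 1 transcript had a median of 587 and 7 had under 20. Apart from Epha7, with 703, the former had at most 21. Ephb4, Nrp2, Plxnb2, Plxnb3, Sema4a and Sema6d had 0 counts in all 7 dose-set libraries. A count of 0 over the set allows up to 3 counts, or 0.0286 CPM, for counting error only.

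**Figure D3:**
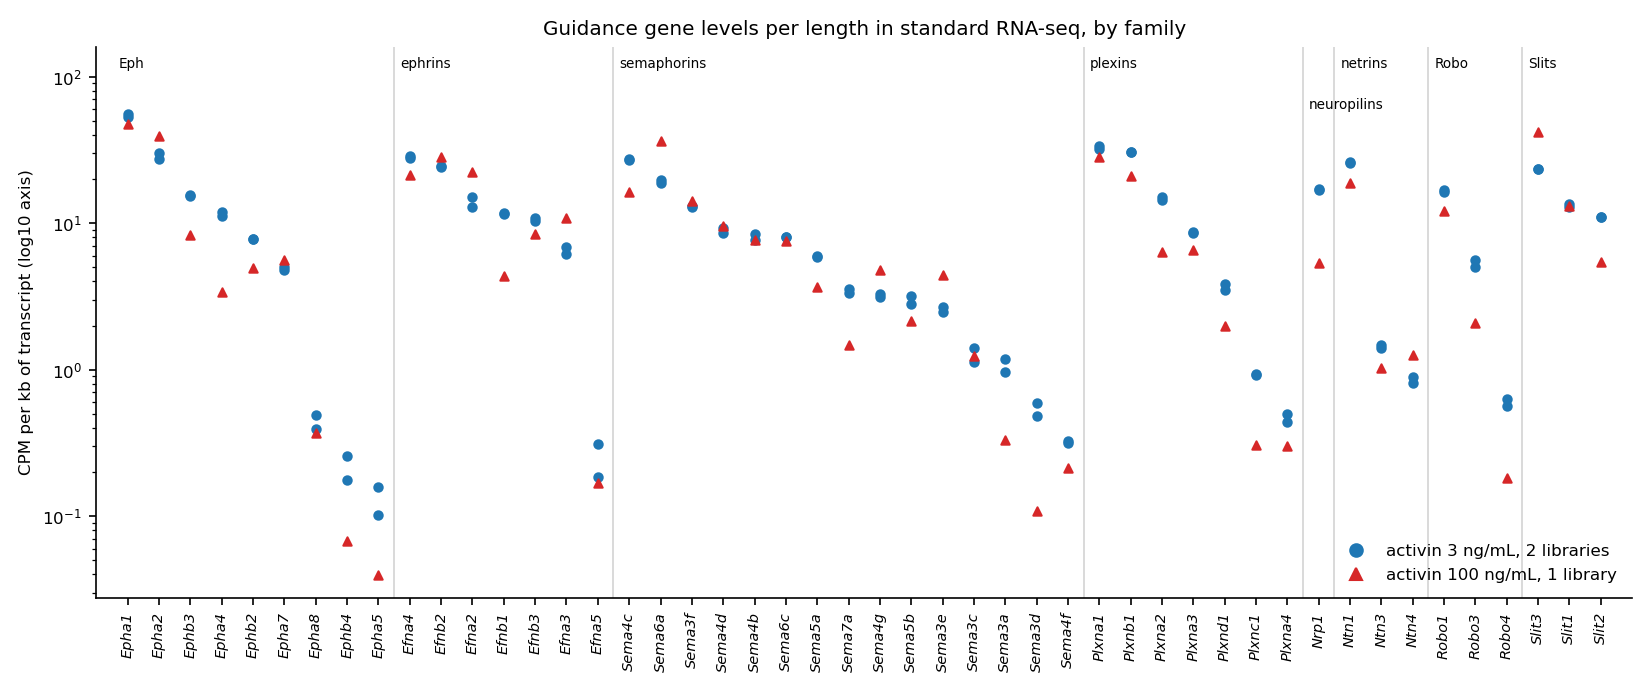
CPM per kilobase of transcript in standard RNA-seq on a log10 axis, for members with at least 20 counts in the AA3 libraries together, ordered within each family. Circles are the 2 AA3 libraries and triangles the AA100 library; Epha1 is highest, and the AA100 triangles of Slit3 and Sema6a lie above their circles.

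In standard RNA-seq AA100 against AA3 passed for 35 of 49 members, 8 higher and 27 lower, beside 62.3% of all genes (31.1% higher and 31.1% lower). The median change was -0.46 log2 units over the members tested and -0.01 over all genes. With a change of at least 2-fold required as well, 11 members passed, all lower, beside 6.66% of genes higher and 6.45% lower (13.1% in all). By family 7 of 7 plexins and 3 of 3 Robo receptors tested were lower, with 4 of 9 Eph receptors, 3 of 8 ephrins, 6 of 15 semaphorins, 2 of 3 netrins, 1 of 3 Slits and Nrp1. Those higher were Epha2, Efna2, Efna3, Efnb2, Sema3e, Sema4g, Sema6a and Slit3. The AA3 pair varied little here, with a chi-square of 1.29 per degree of freedom. In a joint fit of the 10 libraries of the method set, 1 member passed, Nrp1, beside 1.91% of genes.

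The median change of the plexins had the opposite sign in the other methods. In DP-seq 0 of 7 and in SMART-seq 0 of 5 plexins tested passed, and their median change was 0.23 and 0.25, against -0.63 in standard RNA-seq. Plxna1, a class A plexin, was at 288 and 302 CPM in AA3 and 254 in AA100 by standard RNA-seq, 30.2 CPM in AA3 and 48.9 and 47.2 in AA100 by DP-seq and 21.8 and 16.3 CPM in AA3 and 21.1 and 26.8 in AA100 by SMART-seq. Its changes were -0.22 (SE 0.03, adjusted p = 3.6e-10), 0.67 (SE 0.43, adjusted p = 0.5) and 0.33 (SE 0.32, adjusted p = 0.71). Plxnb1, the receptor of Sema4d, was at 264 and 265 CPM in AA3 and 182 in AA100 by standard RNA-seq, 52.6 CPM in AA3 and 71.8 and 69.1 in AA100 by DP-seq and 24.8 and 6.64 CPM in AA3 and 21.7 and 15.8 in AA100 by SMART-seq. Its changes were -0.53 (SE 0.04, adjusted p = 3e-45), 0.42 (SE 0.36, adjusted p = 0.64) and 0.25 (SE 0.66, adjusted p = 0.92). For both genes AA100 lay above AA3 in DP-seq and below it in standard RNA-seq, and the doses overlapped in SMART-seq. Plxna3, another class A plexin, changed by -0.38 (SE 0.08, adjusted p = 1.5e-06), 0.23 (SE 0.38, adjusted p = 0.85) and 0.03 (SE 1.11, adjusted p = 0.99). For the Robo receptors 0 of 4 in DP-seq and 0 of 2 in SMART-seq passed, with medians of -0.31 and -0.21.

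Epha4 was at 74.97 and 71.02 CPM in AA3 and 21.3 in AA100 by standard RNA-seq, 119 CPM in AA3 and 48.5 and 71.05 in AA100 by DP-seq and 9.58 and 8.16 CPM in AA3 and 2.37 and 1.08 in AA100 by SMART-seq, with AA3 above AA100 in each. Its changes were -1.78 (SE 0.09, adjusted p = 1.4e-84), -0.997 (SE 0.33, adjusted p = 0.1) and -2.36 (SE 0.68, adjusted p = 0.17). Efnb1, a transmembrane ligand, was at 38.1 and 37.8 CPM in AA3 and 14.1 in AA100 by standard RNA-seq (log2 change -1.43, SE 0.11, adjusted p = 3.1e-33), 12.6 CPM in AA3 and 6.78 and 1.68 in AA100 by DP-seq and 2.17 and 0.495 CPM in AA3 and 0.941 and 0.0696 in AA100 by SMART-seq, where the doses overlapped. Epha5 was at 0.7395 and 1.15 CPM in AA3 and 0.292 in AA100 by standard RNA-seq, 0.282 CPM in AA3 and 2.23 and 3.44 in AA100 by DP-seq and 1.48 and 0.03302 CPM in AA3 and 0 and 0.0348 in AA100 by SMART-seq.

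Among the Robo receptors, Robo3 was at 24.1 and 26.99 CPM in AA3 and 10.02 in AA100 in standard RNA-seq (log2 change -1.35, SE 0.14, adjusted p = 5.5e-21) and at or under 1.25 CPM in the other 2 methods. Robo1 was at 124 and 128 CPM in AA3 and 91.4 in AA100 by standard RNA-seq, 124 CPM in AA3 and 46.8 and 82.2 in AA100 by DP-seq and 15.3 and 11.7 CPM in AA3 and 10.99 and 7.97 in AA100 by SMART-seq. Robo4, an endothelial Robo, was at 2.03 and 1.82 CPM in AA3 and 0.584 in AA100 in standard RNA-seq (log2 change -1.70, SE 0.58, adjusted p = 0.0065). By DP-seq Robo4 was at 0.941 CPM in AA3 and 0 and 2.34 in AA100 (log2 change 0.32, SE 2.77, adjusted p = 0.98), and in the dose set at 0.25 CPM in AA3 and 0.885 in AA100 (1.79, SE 2.33, adjusted p = 1), so its sign differed between the sets. Slit1 was at 68.03 and 65.3 CPM in AA3 and 66.3 in AA100 by standard RNA-seq, 3.95 CPM in AA3 and 1.43 and 5.85 in AA100 by DP-seq and 3.94 and 5.02 CPM in AA3 and 5.34 and 2.61 in AA100 by SMART-seq.

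Of the semaphorin axis, Sema3a was at 7.03 and 5.74 CPM in AA3 and 1.95 in AA100 by standard RNA-seq (log2 change -1.71, SE 0.29, adjusted p = 3.9e-08), 0.0941 CPM in AA3 and 0 and 0.877 in AA100 by DP-seq and 4.88 and 1.88 CPM in AA3 and 0.0753 and 0.104 in AA100 by SMART-seq. Sema5b was at 13.8 and 12.3 CPM in AA3 and 9.34 in AA100 by standard RNA-seq, 11.8 CPM in AA3 and 3.92 and 4.53 in AA100 by DP-seq and 0.9402 and 1.95 CPM in AA3 and 0.339 and 0 in AA100 by SMART-seq. AA100 was below AA3 in each. Sema7a was at 11.7 and 10.9 CPM in AA3 and 4.87 in AA100 by standard RNA-seq (log2 change -1.22, SE 0.20, adjusted p = 1.1e-08). Its receptor Plxnc1 was at 6.66 and 6.796 CPM in AA3 and 2.24 in AA100 by standard RNA-seq (log2 change -1.58, SE 0.28, adjusted p = 9.8e-08) but at 1.79 CPM in AA3 and 4.28 and 7.82 in AA100 by DP-seq (log2 change 1.75, SE 1.28, adjusted p = 0.57). Plxna4 was at 6.38 and 5.65 CPM in AA3 and 3.89 in AA100 by standard RNA-seq, 3.67 CPM in AA3 and 0.981 and 6.58 in AA100 by DP-seq and 0 and 0.06604 CPM in AA3 and 3.69 and 0 in AA100 by SMART-seq.

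Members with higher levels at AA100 included Epha2, at 107 and 117 CPM in AA3 and 154 in AA100 by standard RNA-seq, 13.2 CPM in AA3 and 15.9 and 25.9 in AA100 by DP-seq and 9.62 and 8.92 CPM in AA3 and 28.97 and 38.95 in AA100 by SMART-seq. Its changes were 0.47 (SE 0.05, adjusted p = 1.2e-21), 0.67 (SE 0.60, adjusted p = 0.66) and 1.87 (SE 0.32, adjusted p = 0.065). Slit3 was at 122 and 123 CPM in AA3 and 219.8 in AA100 by standard RNA-seq, 8.57 CPM in AA3 and 15.4 and 17.3 in AA100 by DP-seq and 10.5 and 13.01 CPM in AA3 and 30.1 and 27.6 in AA100 by SMART-seq, with changes of 0.84 (SE 0.04, adjusted p = 1.8e-86), 0.93 (SE 0.68, adjusted p = 0.57) and 1.29 (SE 0.31, adjusted p = 0.12). For both genes AA100 lay above AA3 in every method. Sema3e was at 18.5 and 16.8 CPM in AA3 and 30.4 in AA100 by standard RNA-seq, 6.87 CPM in AA3 and 11.9 and 31.2 in AA100 by DP-seq and 0.9402 and 0.396 CPM in AA3 and 7.22 and 2.61 in AA100 by SMART-seq, with changes of 0.78 (SE 0.11, adjusted p = 1.5e-11), 1.65 (SE 0.70, adjusted p = 0.24) and 2.87 (SE 1.05, adjusted p = 0.25). Its AA100 libraries were above AA3 in every method too.

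Efna3 was at 14.6 and 16.2 CPM in AA3 and 25.6 in AA100 by standard RNA-seq (log2 change 0.73, SE 0.12, adjusted p = 5e-09), 2.45 CPM in AA3 and 0.802 and 1.68 in AA100 by DP-seq and 0.0362 and 0.06604 CPM in AA3 and 0.828 and 4.66 in AA100 by SMART-seq. Efna1 was at 0.7395 and 0.574 CPM in AA3 and 0.973 in AA100 by standard RNA-seq and 0.181 and 0.958 CPM in AA3 and 1.73 and 1.01 in AA100 by SMART-seq, and at 0 in DP-seq. Ntn1 was at 148 and 150.0 CPM in AA3 and 108 in AA100 by standard RNA-seq, 12.1 CPM in AA3 and 22.6 and 9.58 in AA100 by DP-seq and 14.6 and 9.64 CPM in AA3 and 13.5 and 18.8 in AA100 by SMART-seq, and passed as lower in standard RNA-seq alone. Ntn3 was at 7.12 and 7.37 CPM in AA3 and 5.16 in AA100 by standard RNA-seq and 11.7 CPM in AA3 and 0.267 and 7.89 in AA100 by DP-seq, with AA100 below AA3 in both. Ntn4 was at 3.24 and 2.97 CPM in AA3 and 4.57 in AA100 by standard RNA-seq and 1.04 CPM in AA3 and 4.99 and 8.41 in AA100 by DP-seq, with AA100 above AA3 in both.

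Epha1 was at 173 and 182 CPM in AA3 and 154 in AA100 by standard RNA-seq (log2 change -0.20, SE 0.04, adjusted p = 1.1e-05), 26.5 CPM in AA3 and 44.4 and 41.4 in AA100 by DP-seq (log2 change 0.70, SE 0.45, adjusted p = 0.5) and 12.9 and 15.16 CPM in AA3 and 10.8 and 18.6 in AA100 by SMART-seq. The sign in standard RNA-seq was opposite to that in DP-seq. Sema6a, a transmembrane semaphorin, was at 128 and 136 CPM in AA3 and 251 in AA100 by standard RNA-seq (log2 change 0.93, SE 0.04, adjusted p = 7.6e-117). By DP-seq it was at 52.999 CPM in AA3 and 40.6 and 32.6 in AA100 (log2 change -0.54, SE 0.41, adjusted p = 0.6). By SMART-seq it was at 26.9 and 23.2 CPM in AA3 and 37.7 and 25.1 in AA100 (log2 change 0.32, SE 0.31, adjusted p = 0.7).

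In DP-seq 4 of 43 members passed, beside 3.43% of all genes (2.27% higher and 1.16% lower): Nrp1, Sema5a and Slit2 lower and Sema4c higher. Sema4c, a ligand of Plxnb2, was at 65.7 CPM in AA3 and 306 and 189 in AA100 by DP-seq (log2 change 1.91, SE 0.31, adjusted p = 0.00086) and 103 and 103 CPM in AA3 and 61.9 in AA100 by standard RNA-seq (log2 change -0.73, SE 0.06, adjusted p = 1.4e-30). The directions were opposite between these DP-seq libraries and standard RNA-seq. In the dose set, also sequenced by DP-seq, the change of Sema4c was -0.06 (SE 0.90) with all libraries. By SMART-seq Sema4c was at 3.15 and 3.07 CPM in AA3 and 2.82 and 1.74 in AA100 (log2 change -0.45, SE 0.83, adjusted p = 0.87). The difference between methods, tested in the joint fit, had an adjusted p of 0.091 for Sema4c, the smallest of the members, and passed for 0 of 53 members in edgeR and 0.931% of all genes. At an unadjusted p under 0.05 there were 4 members, beside 12.9% of genes. In SMART-seq 0 of 38 members passed in edgeR, beside 1.35% of genes (0.786% higher and 0.568% lower), with 10 at an unadjusted p under 0.05, beside 17.6%. DESeq2 called 7 of the 38, beside 10.1% of genes (5.12% higher and 4.99% lower): Efna3, Epha2, Sema3f and Slit3 higher, and Epha4, Nrp1 and Sema3a lower.

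Of 36 members tested in all 3 methods 17 had the same sign in each, beside 40% of all genes. The sign was positive for Efnb2, Epha2, Epha7, Sema3e, Sema4g and Slit3, and negative for Efna4, Efnb1, Epha4, Nrp1, Ntn3, Plxna2, Robo1, Sema5b, Sema7a, Slit1 and Slit2. Nrp1, Sema5a and Slit2 passed in the same direction in at least 2 methods, 3 of 44 members, beside 2.9% of genes.

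**Figure D4:**
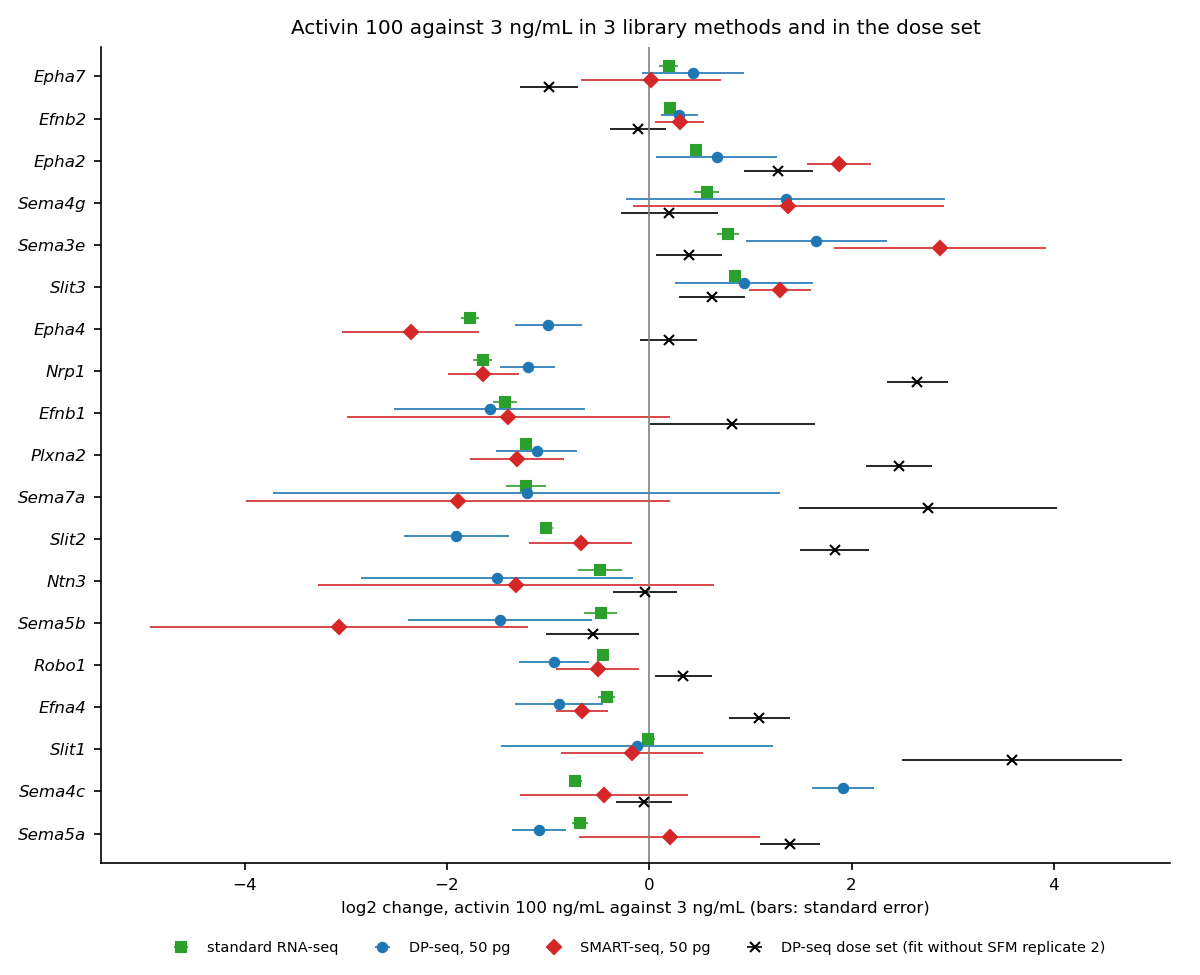
Log2 change of AA100 against AA3 with its SE for the 17 members with the same sign in 3 methods, with Sema4c and Sema5a below them, in standard RNA-seq, DP-seq, SMART-seq and the dose set (fitted without the second SFM library). Nrp1, Plxna2 and Slit2 lie left of 0 in the 3 methods and right of it in the dose set, and Epha2, Slit3 and Sema3e lie right of 0 in all 4.

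Partners of these families were read from 3 lists. In the dose trend 0 partners passed with both SFM libraries. Without the second, 1 netrin receptor or other ligand passed as higher and 2 as lower of 13 tested, 2 of 28 intracellular transducers passed as lower, and 1 of 9 adhesion molecules and proteases as higher, beside 2.97% of all genes higher and 2.82% lower. In standard RNA-seq the counts higher and lower were 2 and 7 of 14, 6 and 13 of 32, and 1 and 6 of 8 in that order, beside 31.1% of genes each way. In DP-seq 2 of 13, 0 of 26 and 0 of 9 passed, both higher, beside 2.27% of genes. In SMART-seq 0 of 7, 0 of 23 and 0 of 7 passed, beside 1.35%. Unc5b, a netrin receptor, was at 136 and 126 CPM in AA3 and 149 in AA100 by standard RNA-seq, and at 84.6 and then 304 and 289 by DP-seq. Its log2 changes were 0.19 (SE 0.05, adjusted p = 0.00013) and 1.81 (SE 0.26, adjusted p = 8.6e-05). Unc5a, a related receptor, had 51 and 42 counts in AA3 and 74 in AA100 by standard RNA-seq, and 0 in AA3 and 91 and 98 in AA100 by DP-seq.

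The number of members counted depended on the library. Standard RNA-seq of AA3 held 62 and 60 members with at least 1 count and 46 and 48 with at least 10. In the dilution series at least 10 counts were reached by 35 and 43 members at 10 ng, 43 and 44 at 1 ng, 35 and 37 at 100 pg, 32 and 38 at 50 pg, 22 and 32 at 10 pg and 10 and 16 at 1 pg. Library totals differed too, and were 427556 and 448933 at 1 pg. The 8 members with at least 10 counts in both 1 pg libraries were Efna4, Efnb2, Ephb2, Ephb3, Nrp1, Plxna2, Sema3e and Sema5a. SMART-seq of AA3 gave 33 and 36 from totals of 28454626 and 30609013. In no library did 11 of the 64 members reach 10 counts.

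**Figure D5:**
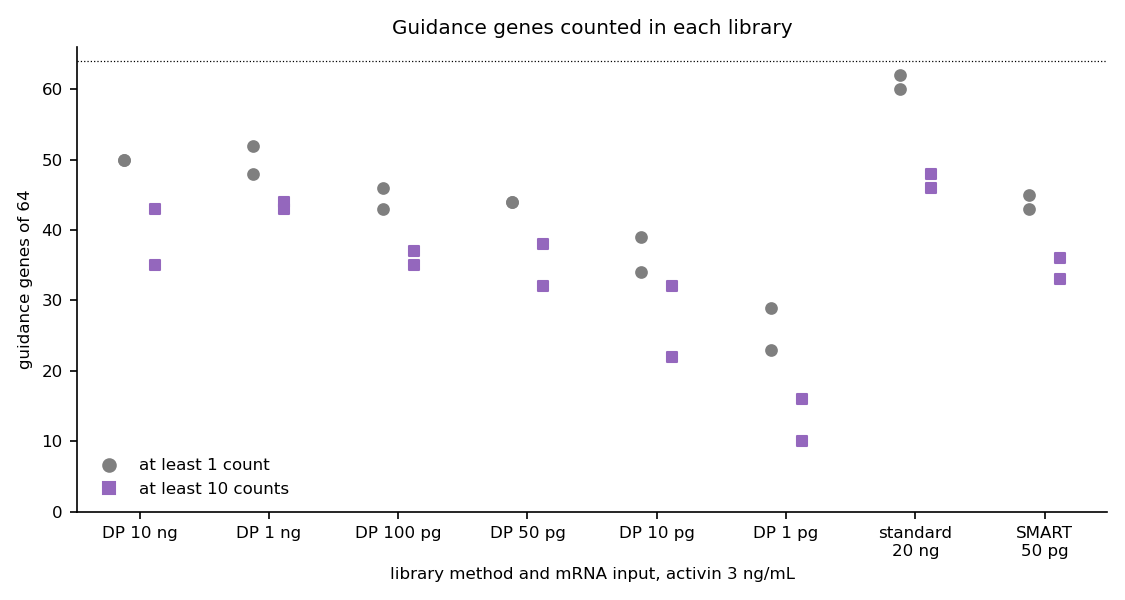
Number of the 64 guidance genes with at least 1 count (circles) and at least 10 counts (squares) in each AA3 library of the dilution series, of standard RNA-seq and of SMART-seq; the dotted line marks 64. At 1 pg 10 and 16 genes had at least 10 counts, against 46 and 48 in standard RNA-seq.

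The share of the member counts that Efnb2 took differed between kinds of library. It was 51.6% to 82.8% in the dose set, 41.8% to 50.3% in the DP-seq libraries of the method set and 9.36% to 50.3% in the dilution series. By standard RNA-seq it was 4.14%, 4.15% and 5.48%, and by SMART-seq 9.26% to 13.2%. With other primers on AA3 mRNA it was 4.32%, 78.2% and 9.66%, at 59.7, 3430 and 72.7 unscaled CPM. The paired-end DP-seq library was at 4.95% and 61.99 CPM. In the dilution series the level was 416 and 545 CPM at 10 ng and 1236 and 972 at 50 pg.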

How the data were processed

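Per the file headers, each of the 33 deposited tables holds unique read counts per RefSeq transcript. In all 15 values were not whole, and the columns that hold them were treated as the authors' estimated counts and rounded. For the aligner, counting rule, strand, RefSeq release and build, no statement is given in the sources used here. Of 26566 transcripts 25853 were named by RefSeq, 154 by GENCODE and 559 stayed unnamed; counts were summed to 21844 genes. Groups follow the labels. Genes were filtered with filterByExpr (minimum count 10, total 15), scaled by TMM and tested with robust quasi-likelihood models in edgeR 4.0.16 (R 4.3.3, limma 3.58.1), with Benjamini-Hochberg adjustment over all genes at 0.05. Alternatives were DESeq2 1.42.0, upper-quartile scaling, no filter, a joint fit of the method set, SB as the lowest of 5 steps, a log2 coding of the dose, a replicate block and each replicate left out. Scripts were tested on simulated data. Any member may be named. Values per library follow a rule: in each family, plexins and neuropilins together, the 3 members with the largest dose slope and the 3 with the largest mean change over at least 2 methods, and every member called in the dose trend, against SFM or in at least 2 methods. Epha1, Epha7, Ephb3, Plxna1, Plxnb1, Sema4c and Sema6a fall outside it and were chosen after their values were seen. The members and lists were chosen with earlier results of these data known. Lengths are from GENCODE transcripts matched by RefSeq accession. The deviations of same-numbered libraries correlated at -0.23 between SFM and AA15 and -0.02 in SMART-seq, each over 2 pairs.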

Additional observations from a re-analysis of the deposited data

How the results depend on the processing

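With 1 or 2 libraries per group, the counts of members called move with the libraries that set the spread, and each is given with the share of all genes called in the same fit. Against 0 in the dose trend, DESeq2 called 9 (4.11% of genes), no filter 1 (0.44%) and SB as the lowest step 4 (1.61%). Leaving out single libraries gave 0 to 12, the 12 without SFM replicate 2 (5.79%) and 0 without replicate 1 (0.0168%). Against 0 in SB, AA3, AA15 and AA100 relative to SFM, leaving out a library gave 0 to 26, 0 to 26, 0 to 35 and 0 to 28. The upper ends came without SFM replicate 1, where 58.4%, 57.3%, 64.7% and 59.2% of genes were called. Without replicate 2 the counts were 6, 11, 16 and 17 (4.12%, 5.27%, 13% and 12.9%), and DESeq2 called 2 in AA15 (1.46%) and 2 in AA100 (1.01%). For AA100 against AA3 in the dose set leaving out a library gave 0 to 12 (5.01% and 4.64% without SFM replicate 1 and 2), and leaving out both SFM libraries gave 12 (4.96%). For the difference between the 2 DP-seq sets it gave 3 to 21 (0.561% to 22.4%). The joint fit of the method set called 1 in standard RNA-seq (1.91%), 0 in DP-seq (2.35%) and 4 in SMART-seq (4.07%), where DESeq2 called 7 (10.1%). Without single libraries the joint fit called 0 in standard RNA-seq (0.334% and 0.377%) and 0 to 2 in DP-seq (3.69% and 3.66%), and the SMART-seq fit called 0 (0.0886% to 0.146%). Groups with a single library borrow the spread of the others here.

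The replicate block called 0 members in the dose set and 0 in SMART-seq. Pairs crossed between SFM and AA15, tried after the data were seen, called 2 genes in the trend and 5 in AA15, none of them members. Directions reversed for some members, of which these are examples. Efnb2 in SB was 0.41 with the replicate block. With single libraries left out Efnb2 ranged from -0.98 to 0.96, the latter without SFM replicate 2. Efnb1 in SMART-seq ranged from -4.17 to 0.021, the latter without AA3 replicate 1. Sema5a in AA15 against SFM was -0.60 with all libraries, 0.99 without SFM replicate 2 and -1.35 without replicate 1. Plxna4 in AA100 against SFM was 0.31, 1.29 and -0.29 in that order. The cause was not tested. Most members with several transcripts had too few counts for a call.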
